A study of Danio rerio with 7 samples.

Results

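The nerve genes described here were mpz, snap25a, elavl3, gfap and gap43, chosen as 5 markers of myelin, synapses, neurons, glia and growing axons. Their probes were found through the RefSeq accession that the array files give for each probe. Of the 43603 distinct probes on the array, 7 belonged to these genes: 3 to mpz, 2 to elavl3, 1 to snap25a and 1 to gfap. No probe was matched to gap43, so that gene was not analysed here. The 4 genes with a probe stood among 11484 named genes, and 5 probes of 3 of them (mpz, snap25a and gfap) were bright enough to be tested.

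Total RNA came from homogenates of whole adult zebrafish of a hybrid strain, labelled AB x unknown, which the series describes as full siblings used to relate expression to copy number variants. There were 4 fish labelled female (4, 7, 8 and 9) and 3 labelled male (5, 8 and 9), with no treatment and no age given in the labels. Each fish was hybridised in Cy5 to its own array against a Cy3 reference of the same hybrid strain, so a value is the log2 ratio of fish over reference, and a value of 1 is a doubling. The design implies a comparison of the sexes and a description of the spread among siblings; the fish genotypes were not used here.

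Myelin is the lipid-rich sheath that glia wrap around axons, and mpz encodes the main adhesive glycoprotein of compact myelin, which in fish is also made in the central nervous system. At synapses, snap25a encodes a membrane protein of the complex that fuses transmitter vesicles with the nerve terminal. In the neuron itself, elavl3 encodes an RNA-binding protein used as a general mark of neurons, while gfap encodes an intermediate filament of radial glia and gap43 a protein of growth cones. In whole-body RNA, fewer nerve cells and less nerve RNA per cell cannot be told apart.

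The arrays differed in quality and in scan day, and 1 library stood apart from its label. Between 29.7% and 65.2% of probes were well above background in Cy5. The file headers place the scans on 3 days, called sessions here: female 7, female 9 and male 9 in session 1, male 8 alone in session 2, and female 4, female 8 and male 5 in session 3. Across probes, the Cy3 reference profiles had Spearman correlations of 0.996 to 0.998 within a session, but of 0.879 to 0.898 between session 1 and the other sessions, so the reference was not the same measurement on every day. The headers also give the same slide and position to 3 pairs of fish scanned in different sessions, and the log2 ratios of those pairs correlated at 0.32 to 0.68 across probes. The summed Cy5 intensity of 11 tested egg genes made up 1.13% to 1.35% of all Cy5 signal in the females and 1.18% in the library labelled male 5, against 0.0231% in male 8 and 0.0557% in male 9. For zp2.1, an egg coat gene, the log2 ratio averaged -0.21 ± 0.25 in the females (SD, n = 4), against -0.09 in the library labelled male 5, -5.63 in male 8 and -4.14 in male 9, on a probe saturated in Cy5 on 1 of the 7 arrays. A second egg coat gene, zp3b, averaged -0.12 ± 0.73 in the females (SD, n = 4), against 0.60, -5.17 and -4.82 in the libraries labelled male 5, 8 and 9, on a probe saturated on 0 arrays. Results on sex are therefore given with and without the library labelled male 5, a step chosen with these values known.

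The myelin gene mpz was highest in males 8 and 9, and the library labelled male 5 lay below every female. Its brightest probe read 0.38, 1.53, 0.25 and 1.16 in females 4, 7, 8 and 9, against 0.17 in the library labelled male 5, 3.72 in male 8 and 3.68 in male 9. Both sexes overlapped through the library labelled male 5 alone, since males 8 and 9 were 2.15 above the highest female. Over all 7 fish the difference, female minus male, was -1.69 ± 0.89 (SE), which did not pass (limma, adjusted p = 0.539 over all 22705 probes tested). Without the library labelled male 5 it was -2.87 ± 0.38, and mpz was lower in the 4 females than in males 8 and 9 (limma, adjusted p = 0.00417). On the linear scale the mean ratio of males 8 and 9 was 7.30 times that of the females.

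**Figure D1:**
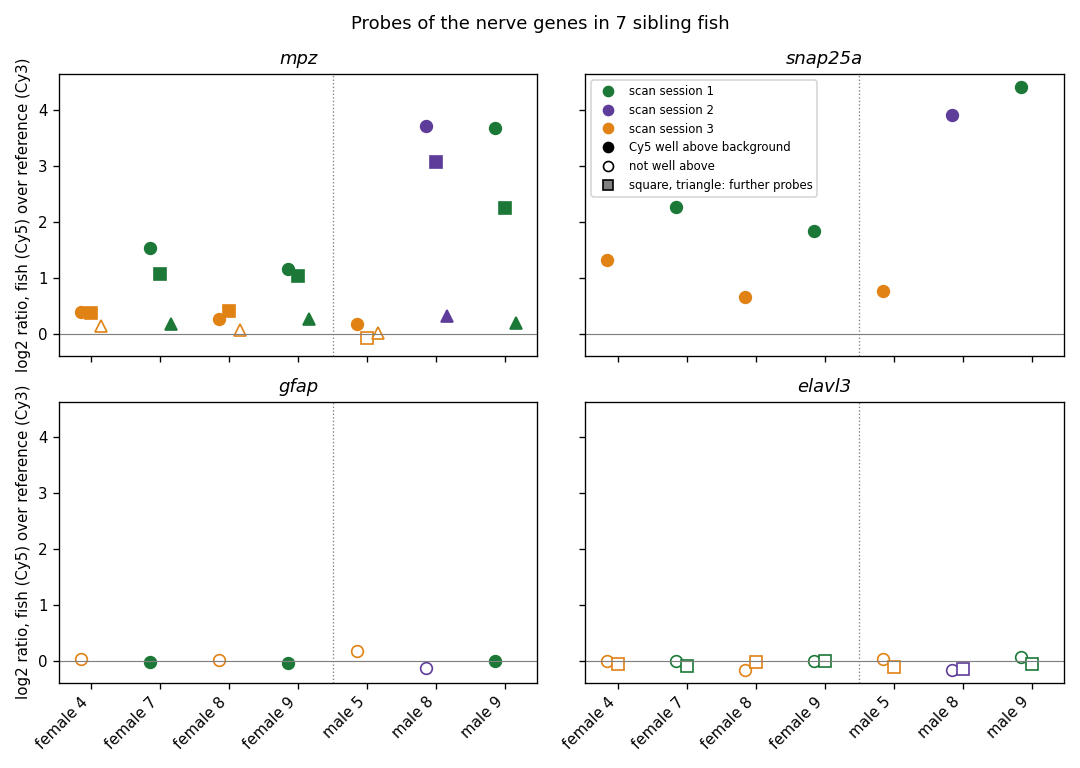
Log2 ratio of fish (Cy5) over reference (Cy3) for every probe of mpz, snap25a, gfap and elavl3 in each fish, females left of the dotted line and males right. Colour gives the scan session, a filled point a Cy5 signal well above background, and shape the probe; mpz and snap25a stand highest in males 8 and 9, with the library labelled male 5 at 0.17 for mpz and 0.76 for snap25a.

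The other mpz probes differed in how far they followed the brightest. The second probe gave log2 ratios of 0.36, 1.07, 0.41 and 1.04 in females 4, 7, 8 and 9, against -0.08, 3.07 and 2.25 in the libraries labelled male 5, 8 and 9. It showed the same order of groups, and without the library labelled male 5 its difference, female minus male, was -1.94 ± 0.33 (SE; limma, adjusted p = 0.00854). Its Cy5 signal was well above background in all fish but the library labelled male 5. Its Cy3 signal was so in 4 of 7 fish, but not in female 8, male 8 or the library labelled male 5. The third probe stayed between 0.01 and 0.32 in all fish and gave -0.10 ± 0.14 (limma, adjusted p = 0.654). The third probe was dim: its Cy5 signal was well above background in 4 of 7 fish and its Cy3 signal in 0. Across the 7 arrays, which share the reference and its session differences, the brightest probe correlated with the second at r = 0.97 and with the third at r = 0.73.

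The synapse gene snap25a was ordered much like mpz. Its single probe gave 1.32, 2.26, 0.66 and 1.83 in females 4, 7, 8 and 9, against 0.76 in the library labelled male 5, 3.90 in male 8 and 4.41 in male 9. Males 8 and 9 again lay above every female, by at least 1.65, and the library labelled male 5 lay among the females. Over all 7 fish the difference, female minus male, was -1.51 ± 0.89 (SE; limma, adjusted p = 0.540). Without the library labelled male 5 snap25a was lower in the females, by -2.64 ± 0.44 (limma, adjusted p = 0.00839), and the mean ratio of males 8 and 9 was 6.23 times that of the females on the linear scale.

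The glial gene gfap and the neuronal gene elavl3 gave almost no signal on these arrays. For gfap the log2 ratio was 0.03, -0.02, 0.01 and -0.05 in females 4, 7, 8 and 9, against 0.17, -0.13 and 0.00 in the libraries labelled male 5, 8 and 9. The sexes overlapped, and the difference was -0.02 ± 0.14 (SE) over all 7 fish (limma, adjusted p = 0.957) and 0.06 ± 0.14 without the library labelled male 5 (limma, adjusted p = 0.784). Its Cy5 signal was well above background in 3 fish only (female 7, female 9 and male 9) and its Cy3 signal in 0, so a difference in this gene was not detectable at this brightness. Neither probe of elavl3 was well above background in either channel on any array, and its net Cy5 intensity lay between -5 and 8, so it was not tested. The values of gfap and elavl3 near 0 are therefore those of dim spots and not a measured equality of the fish.

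Read against all probes, the counts of called members say little on their own. Over all 7 fish 0 of the 3 tested members passed, as did 0 of all 22705 probes (0%), with 1525 probes (6.72%) at an unadjusted p under 0.05 and no member among them. Without the library labelled male 5, 2 of 3 members passed, and so did 25.4% of all probes and 31.0% of all 8845 tested genes. Genes higher in males 8 and 9, as mpz and snap25a were, made up 11.7% of all tested genes and genes higher in females 19.3%. Both males lay above every female for 22.5% of tested genes. Fish served as the replicates, with no repeat array, so the tests rest on 4 females and 2 or 3 males.

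The Cy5 signal of the fish was also read without the reference. Net Cy5 intensity of the brightest mpz probe was 36, 496, 30.5 and 258 in females 4, 7, 8 and 9, against 21.5, 492 and 400.5 in the libraries labelled male 5, 8 and 9. Female 7 thus had as much raw signal as male 8, on an array with 65.2% of probes well above background, against 47.2% for male 8. As a share of all Cy5 signal on the same array, in parts per 1000000 (ppm), the probe stood at 6.54, 12.9, 6.90 and 11.3 ppm in females 4, 7, 8 and 9, against 4.97, 74.6 and 52.1 ppm in the libraries labelled male 5, 8 and 9. On that scale the females of session 1 held more mpz signal than the females of session 3, and males 8 and 9 held more than any female. For snap25a the share was 21.4, 25.4, 14.0 and 22.0 ppm in females 4, 7, 8 and 9, against 15.96, 88.3 and 96.1 ppm in the libraries labelled male 5, 8 and 9. Here females 4, 7 and 9 lay close together across both sessions, and female 8 was lowest of all 7 fish.

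The reference signal of snap25a differed between sessions 1 and 3. After quantile normalization, the log2 Cy3 intensity of snap25a was 6.85 in female 7, 7.00 in female 9 and 7.00 in male 9, all of session 1. It was 7.29 in female 4, 7.26 in female 8 and 7.34 in the library labelled male 5, all of session 3, and 7.10 in male 8. So the higher snap25a ratios of females 7 and 9 went with a lower reference signal on their arrays. For mpz the log2 Cy3 intensity covered a smaller range, 6.72 to 6.94. It was 6.72, 6.81 and 6.78 in female 7, female 9 and male 9 of session 1. In session 3 it was 6.89 in female 4, 6.92 in female 8 and 6.79 in the library labelled male 5. Sessions 1 and 3 thus overlapped only through the library labelled male 5. Females 7 and 9 again had a lower reference signal than females 4 and 8. With the Cy5 channel alone, which uses no reference, the difference without the library labelled male 5 was -2.59 for mpz and -2.41 for snap25a, in the same direction as the ratios.

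**Figure D2:**
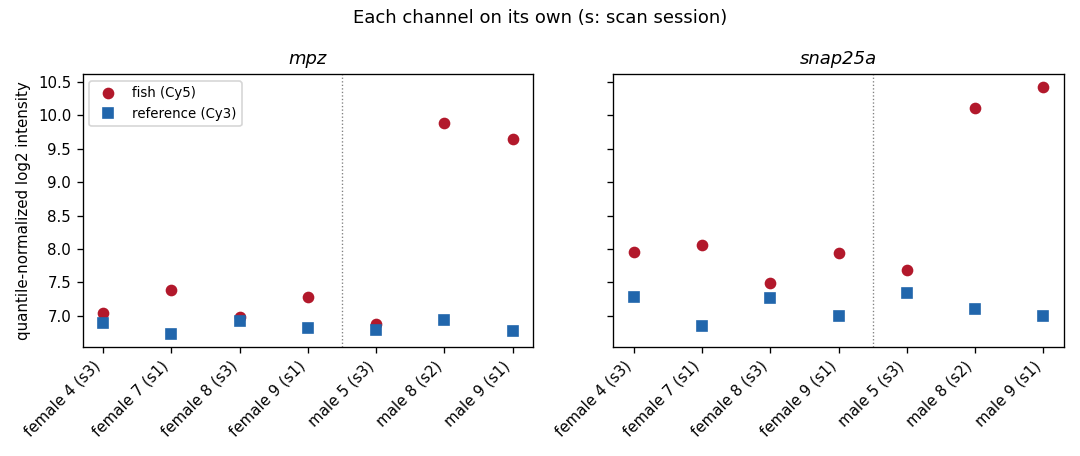
Quantile-normalized log2 intensity of the brightest mpz probe and of the snap25a probe in each fish, circles for the fish (Cy5) and squares for the reference (Cy3), females left of the dotted line and males right, with the session after each name. The Cy5 points of males 8 and 9 stand above all others, while the Cy3 points of mpz stay between 6.72 and 6.94.

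Within a session the comparison rested on 1 library labelled male each time, which is assumed to vary as the other fish do. In session 3 that was the library labelled male 5, whose egg genes lay at the level of the females, so that comparison is one of labels. In session 1, females 7 and 9 were lower than male 9 in mpz by -2.33 ± 0.24 (SE; limma, adjusted p = 0.00396), and in snap25a by -2.36 ± 0.25 (limma, adjusted p = 0.00416), while 29.4% of all probes passed. In session 3, females 4 and 8 differed from the library labelled male 5 by 0.15 ± 0.19 in mpz and 0.23 ± 0.36 in snap25a, and neither passed (limma, adjusted p = 1.000 for both); 0% of all probes passed, and 1.14% were at an unadjusted p under 0.05. The difference between those differences, session 1 minus session 3, was -2.48 ± 0.32 for mpz (limma, adjusted p = 0.0335), and 7.21% of all probes passed that test. For snap25a it was -2.60 ± 0.50, which missed the threshold (limma, adjusted p = 0.0536). Session and fish cannot be told apart in this test, since each session held 1 library labelled male, and that of session 3 had egg genes at the level of the females. A session block without the library labelled male 5 compares only females 7 and 9 with male 9. Session 2 then holds only male 8 and session 3 only females 4 and 8, which add nothing to the difference. The block differences given next therefore repeat those of session 1 and are not a further test. With the session as a block and without the library labelled male 5, mpz differed by -2.33 ± 0.23 (limma, adjusted p = 0.0108) and snap25a by -2.36 ± 0.35 (limma, adjusted p = 0.0192), and 20.2% of all probes passed.

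Among siblings, mpz and snap25a varied far more than most probes, and gfap far less. Pooled within sex, the SD of the log2 ratio was 1.37 for mpz and 1.36 for snap25a, against a median of 0.348 over all tested probes. These SDs stood at the 97.1 and 96.9 percentiles. For gfap the SD was 0.099, at the 3.64 percentile, in a probe too dim to vary much on this scale. The library labelled male 5 carried most of this spread: without it the SDs were 0.532 for mpz, at the 84.8 percentile, and 0.623 for snap25a, at the 89.4 percentile. Among the 4 females alone they were 0.613 and 0.689, at the 90.3 and 92.7 percentiles. In both genes females 7 and 9 of session 1 lay above females 4 and 8 of session 3. For mpz the values were 1.53 and 1.16 against 0.38 and 0.25. Spread between siblings and between sessions cannot be told apart here.

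The order of the fish could be read only in part. Repeat spots of the same probe on an array had an SD of 0.066 to 0.137 in log2 ratio, and neighbours in the order were called apart when their gap was over 2 SDs of such a difference. For mpz the order was male 8, male 9, female 7, female 9, female 4, female 8 and the library labelled male 5. Male 8 was not apart from male 9 on that measure, female 4 not from female 8, and female 8 not from the library labelled male 5. For snap25a the order was male 9, male 8, female 7, female 9, female 4, the library labelled male 5 and female 8, and only the last pair was not apart. For gfap no neighbours were apart. This measure covers the array alone, and neither a second extraction from the same fish nor the change of the reference between sessions. Some neighbours called apart were of different sessions, such as female 9 and female 4 in both genes.

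Many genes correlated closely with mpz and snap25a over the 7 arrays. The log2 ratios of mpz and snap25a correlated with each other at r = 0.988. Of 5265 other named genes well above background and unsaturated on all 7 arrays, the most like mpz were tmod2, a cap protein of actin filaments, ccni, a cyclin, dmd, dystrophin of the muscle membrane, and top2b, a DNA topoisomerase, with r of 0.993 to 0.995, and snap25a ranked 21. The most like snap25a were ndufb2, a subunit of a respiratory complex, vapa, a membrane protein of the endoplasmic reticulum, bnip3lb, a mitochondrial membrane protein, and gapdhs, a glycolytic enzyme, with r of 0.997 to 0.998, and mpz ranked 32. As many as 269 genes exceeded r = 0.95 with mpz and 287 with snap25a. For gfap, at background in most fish, 1 gene did: smad4a at r = 0.954, followed by mboat7, cbr4 and rpp38 with r of 0.933 to 0.949. With 7 arrays that share a reference and fall into few groups of like fish, such values describe these arrays only.

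Other genes of myelin, synapse, neuron, axon growth and glia were then read from 5 lists of 132 genes, of which 99 had a probe and 77 were tested. Over all 7 fish 0 of the 77 passed (limma, 4 at an unadjusted p under 0.05, where 9.56% of all tested genes were), and the median difference, female minus male, was -0.33, against 0.06 over all tested genes. Without the library labelled male 5, 25 genes (32.5%) were higher in males 8 and 9 and 5 (6.49%) higher in the females, against 11.7% and 19.3% of all tested genes. The median difference was then -0.66, against 0.06 over all tested genes. The 77 genes include the tested members. Of the 74 others, 23 (31.1%) were higher in males 8 and 9 and 5 (6.76%) higher in the females. The lists were chosen with earlier results of these data known, so these counts only describe them. Of the 39 brighter genes 18 were higher in males 8 and 9 and 5 in the females, while of the 38 dimmer ones 7 were higher in males 8 and 9 and 0 in the females. The values below leave out the library labelled male 5 and are females minus males 8 and 9.

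Markers of other tissues also set the same 2 males apart, for photoreceptor genes by share of Cy5 signal but not by median log2 ratio. All 11 tested egg genes were higher in the females (median difference 5.14), with zp3 not measured in male 9 and zpcx not measured in male 8 because of outlier spots. Of 10 muscle genes 4 (40%) were lower in the females and 0 higher, against 11.7% and 19.3% of all tested genes. The list's share of Cy5 signal was 0.184% to 0.839% in the females and 0.135% in the library labelled male 5. It was 1.69% in male 8 and 1.78% in male 9. Of 8 photoreceptor genes 3 (37.5%) were lower in the females and 0 higher. Calls in either direction made up 31.0% of all tested genes, so the number of muscle and photoreceptor calls was near that share. The photoreceptor list's share was 0.00208% to 0.00546% in the females and 0.00272% in the library labelled male 5. It was 0.0126% in male 8 and 0.0149% in male 9. Its median log2 ratio was 1.74 in male 9, but 0.50 in male 8, below 0.90 in female 7 and 0.62 in female 9. The tested myelin genes held 0.00493% to 0.00753% in the females and 0.00521% in the library labelled male 5, against 0.0267% in male 8 and 0.0155% in male 9. Synapse genes held 0.0131% to 0.0154% in the females and 0.0127% in the library labelled male 5, against 0.0466% in male 8 and 0.0469% in male 9. The shares of the other nerve lists did not follow that pattern. A share is a sum of intensity, so the brightest genes of a list weigh most in it. Among axon growth genes the brightest, marcksb and sox11b, were higher in the females. Counted by gene, the difference, females minus males 8 and 9, was negative for 11 of 15 neuron, 11 of 13 axon growth and 10 of 13 glia genes. Over all tested genes it was negative for 46.3%, a share not matched to the lists for brightness. Of the tested nerve genes it was negative for 74.4% of the brighter 39 and 89.5% of the dimmer 38. Axon growth genes held 0.0486% to 0.0738% in the females and 0.0541% in the library labelled male 5, against 0.0222% in male 8 and 0.0190% in male 9, the lowest of all fish. Neuron genes held 0.0193% to 0.0211% in the females and 0.0215% in the library labelled male 5, against 0.0224% in male 8, the highest, and 0.0187% in male 9, the lowest. Glia genes held 0.0390% to 0.0498% in the females and 0.0472% in the library labelled male 5, against 0.0600% in male 8 and 0.0438% in male 9. All 5 nerve lists together held 0.131% to 0.159% in the females and 0.141% in the library labelled male 5, against 0.178% in male 8 and 0.144% in male 9, so male 9 lay within the females. The part of egg, muscle and eye tissue in the values of the nerve genes was not tested.

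Of 11 tested myelin genes, with a median difference of -0.88, 6 (54.5%) were lower in the females and 0 higher, against 11.7% and 19.3% of all tested genes. Apart from mpz the 6 were plp1b, pmp22a and pmp22b, which encode myelin membrane proteins, and sox10 and egr2b, which encode transcription factors of myelinating glia. With the session as a block, which left only females 7 and 9 against male 9, the calls of pmp22a and sox10 were lost. For plp1b the log2 ratio averaged 0.67 ± 0.37 in the females (SD, n = 4), against 3.64 in male 8 and 2.67 in male 9, a difference of -2.49 ± 0.35 (SE; limma, adjusted p = 0.00468). For egr2b the females averaged 0.56 ± 0.36 (SD, n = 4), against 2.88 and 2.23 in males 8 and 9, and the difference was -1.99 (limma, adjusted p = 0.00543). The library labelled male 5 had 0.36 for plp1b and 0.18 for egr2b, near the females. The plp1b relative plp1a, the brightest myelin gene, did not pass, at 0.68 ± 0.25 (limma, adjusted p = 0.0971). It did pass as higher in the females with processed signals, at 2.64 (limma, adjusted p = 0.00708). The same held with the deposited table, at 2.61 (limma, adjusted p = 0.00760), and with Cy5 alone, at 0.95 (limma, adjusted p = 0.0151).

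Of 25 tested synapse genes, with a median difference of -0.58, 7 (28%) were lower in the females and 0 higher, against 11.7% and 19.3% of all tested genes. Calls in either direction made up 31.0% of all tested genes, so the number of calls was not high for these arrays. The 7 were snap25a and its duplicate snap25b, vamp2 and stxbp1a of the vesicle fusion machinery, nsfa, which takes that machinery apart, sncgb, a synuclein, and grin1a, a subunit of glutamate receptors. The difference was widest for sncgb, whose log2 ratio averaged 0.65 ± 0.37 in the females (SD, n = 4), against 3.23 and 4.05 in males 8 and 9 (-2.99 ± 0.32 SE; limma, adjusted p = 0.00242). For stxbp1a the females averaged 1.09 ± 0.66 (SD, n = 4), against 3.45 and 3.81 in males 8 and 9 (limma, adjusted p = 0.00795). The 1 other tested probe of snap25b and that of nsfa did not pass as lower in the females, while that of vamp2 did. Cy5 signal of grin1a was well above background in only 2 of the 4 females. The bright genes nsfb, at 0.70 ± 0.23 (limma, adjusted p = 0.0712), and rab3aa (limma, adjusted p = 0.0686) did not pass. Both did pass as higher in the females with processed signals, with the deposited table and with Cy5 alone. For nsfb the differences were then 1.97, 1.94 and 1.08 (limma, adjusted p = 0.0209, 0.0170 and 0.00184). The Cy5 signal of rab3aa was not well above background in male 8 or male 9, so no difference is given for it.

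Neuron genes went both ways: of 15 tested, 3 (20%) were lower and 2 (13.3%) higher in the females, with a median difference of -0.61. Over all tested genes those shares were 11.7% and 19.3%. With 5 of 15 called, against 31.0% of all tested genes, the number of calls was near that of the arrays as a whole. Lower were elavl4, a close relative of elavl3, rbfox1, a splicing factor, and eno2, a neuronal enolase. Other tested probes, 2 of elavl4 and 1 of eno2, did not pass in that direction. Cy5 signal of elavl4 was well above background in only 2 of the 4 females. For rbfox1 the log2 ratio averaged 1.01 ± 0.30 in the females (SD, n = 4), against 3.84 and 3.45 in males 8 and 9 (-2.63 ± 0.24 SE; limma, adjusted p = 0.00168), and eno2 differed by -2.12 (limma, adjusted p = 0.0157). Higher in the females were uchl1, a ubiquitin hydrolase, at 1.78 ± 0.46 (limma, adjusted p = 0.0347), and elavl2, an RNA-binding protein of the elavl3 family that in zebrafish is also found outside the nervous system, at 1.12 ± 0.23 (limma, adjusted p = 0.0164). The 1 other tested probe of elavl2 did not pass as higher in the females. The tubulin gene tubb5 did not pass, at -0.98 ± 0.58 (limma, adjusted p = 0.264).

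Axon growth genes, the list of gap43, likewise went both ways: of 13 tested, 3 (23.1%) were lower and 2 (15.4%) higher in the females, with a median difference of -0.76. Over all tested genes those shares were 11.7% and 19.3%. Higher in the females were sox11b, a transcription factor of immature neurons, at 2.95 ± 0.85 (limma, adjusted p = 0.0480), and marcksb, a membrane-bound substrate of protein kinase C, at 2.48 ± 0.67 (limma, adjusted p = 0.0397). For marcksb the log2 ratio averaged -0.95 ± 0.86 in the females (SD, n = 4), against -4.32 and -2.54 in males 8 and 9, and the library labelled male 5 had -1.64. Without male 8, sox11b gave 1.91 (limma, adjusted p = 0.252) and marcksb 1.58 (limma, adjusted p = 0.208). The call of sox11b was also lost without female 7, 8 or 9, and that of marcksb without female 7 or 9. The 1 other tested probe of sox11b did not pass as higher in the females. Lower in the females were tuba1c, a tubulin, at -1.86 ± 0.48 (limma, adjusted p = 0.0330, lost without female 4, 8 or 9 or male 9), dpysl3, a collapsin response protein, and alcama, a cell adhesion molecule. Of 2 other tested probes of alcama, 1 passed as lower in the females. The transcription factor gene klf6a did not pass, at -0.94 ± 0.37 (limma, adjusted p = 0.109), but did without male 9, at -1.57 (limma, adjusted p = 0.0221).

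Of 13 tested glia genes, the list of gfap, 6 (46.2%) were lower and 1 (7.69%) higher in the females, with a median difference of -0.91. Over all tested genes those shares were 11.7% and 19.3%. Lower were fabp7a, a fatty acid carrier of radial glia, aqp4, a water channel, vim, an intermediate filament that many other cells share, cyp19a1b, the brain aromatase of radial glia, ptgdsb.1, a prostaglandin synthase, and apoeb, an apolipoprotein. For cyp19a1b the log2 ratio averaged 0.44 ± 0.46 in the females (SD, n = 4), against 2.72 and 2.67 in males 8 and 9 (-2.25 ± 0.30 SE; limma, adjusted p = 0.00408). For ptgdsb.1 the difference was -2.79 (limma, adjusted p = 0.00573) and for apoeb -2.75 (limma, adjusted p = 0.0130). Cy5 signal of fabp7a and of aqp4 was well above background in only 2 of the 4 females, so their calls rest partly on dim spots. Higher in the females was glulb, a glutamine synthetase, at 0.93 ± 0.16 (limma, adjusted p = 0.00854), while its duplicate glula gave -1.22 ± 0.41 and did not pass (limma, adjusted p = 0.0759). Some calls in the neuron and glia lists were lost without male 8 and also without male 9. Their adjusted p (limma) was 0.0559 and 0.0679 for apoeb, 0.0692 and 0.0748 for eno2, 0.0760 and 0.0629 for elavl2, and 0.0784 and 0.165 for uchl1, the first without male 8 and the next without male 9. The call of uchl1 was also lost without female 4, 8 or 9. With the session as a block, 10 of the 30 calls in the 5 lists were lost and 9 other genes passed. The adjusted p (limma) was then 0.0511 for vim, 0.0522 for ptgdsb.1, 0.0596 for eno2, 0.0607 for apoeb and 0.0767 for alcama. It was 0.0899 for sox10, 0.0960 for pmp22a, 0.100 for fabp7a, 0.102 for elavl2 and 0.106 for uchl1. Of the genes that did not pass without the block, glula reached 0.0338 with it. Whether probes of duplicate genes such as snap25a and snap25b also bind each other's RNA was not tested.

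**Figure D3:**
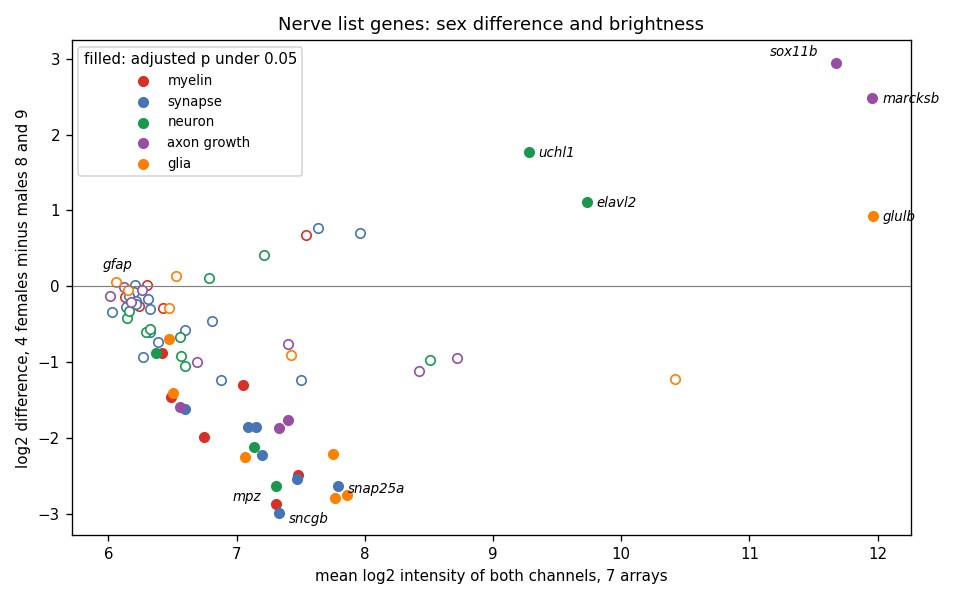
Each point is 1 of the 77 tested genes of the 5 nerve lists, with mean log2 intensity of both channels over the 7 arrays on the horizontal axis and the log2 difference, 4 females minus males 8 and 9, on the vertical axis, filled where the adjusted p is under 0.05. The 5 genes higher in the females are among the brighter ones, and the 25 lower in the females include mpz at -2.87 and snap25a at -2.64.

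By the share of Cy5 signal given above, only the myelin and synapse lists were highest in both males 8 and 9. By the median log2 ratio all 5 nerve lists were highest in these males. In the axon growth list the margin was small, with 0.28 in male 9 against 0.25 in female 7. The median log2 ratio of the myelin list was 0.30, 0.38, 0.13 and 0.31 in females 4, 7, 8 and 9, against 0.16, 1.03 and 0.82 in the libraries labelled male 5, 8 and 9. For the synapse list it was 0.12, 0.50, 0.13 and 0.50 in females 4, 7, 8 and 9, against 0.06, 0.75 and 0.70 in the libraries labelled male 5, 8 and 9. Females 7 and 9, of session 1, lay above females 4 and 8 in the synapse list, and the library labelled male 5 lay below every female there. All tested genes together had medians of -0.05 to 0.04 in the females, against -0.04, -0.15 and -0.09 in the libraries labelled male 5, 8 and 9.

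**Figure D4:**
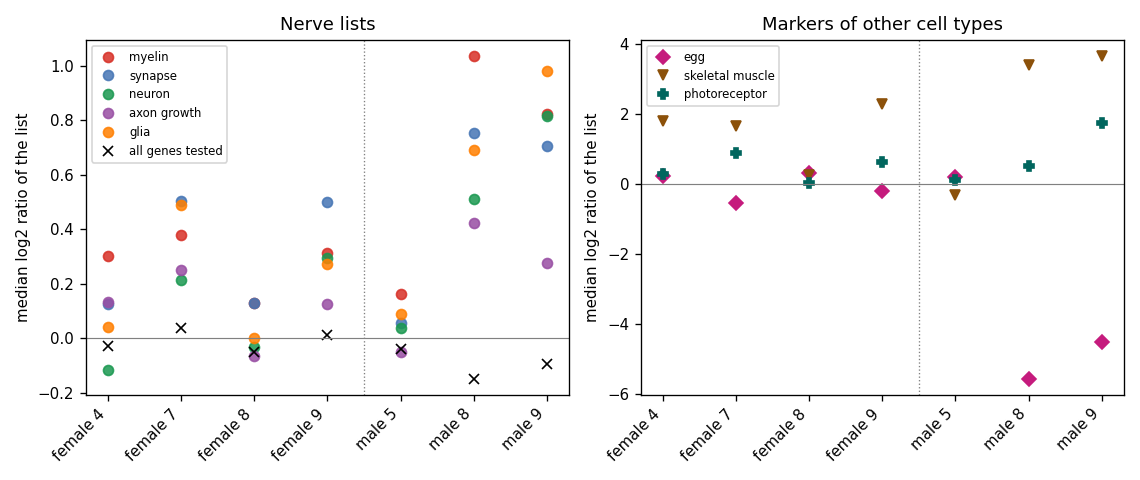
Median log2 ratio of each gene list in each fish, females left of the dotted line and males right; the left panel shows the 5 nerve lists and all tested genes, the right panel egg, skeletal muscle and photoreceptor genes on a wider axis. Males 8 and 9 have the highest medians in each of the 5 nerve lists, and their egg medians are -5.55 and -4.51.

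The size of these differences depended on how the arrays were scaled. With each array centred on its median in place of loess, the difference without the library labelled male 5 was -1.41 for mpz (limma, adjusted p = 0.191) and -1.20 for snap25a (limma, adjusted p = 0.301), so neither passed. That scaling also moved the median difference of all probes to 0.24, against -0.05 with loess, and 95.7% of its 702 called probes were higher in females, against 52.1% of 5757 with loess. Of the 30 calls in the nerve lists, 1 (uchl1) held under median centring. The differences of mpz and snap25a lay below the median difference of all probes under both scalings, but passed with loess and not with median centring.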

How the data were processed

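RNA of 7 fish was measured on 1 2-colour Agilent array each. Per the file headers, the authors extracted spots with Feature Extraction 10.5.1.1 (protocol GE2_105_Jan09_2, design 019161). The deposited scanner files give linear intensity per channel with its local background, and the deposited value table holds log10 ratios of Cy5 over Cy3, equal to the scanner software's at all 45220 spots of each array. The labels name total RNA, but their labelling protocol describes DNA; how the RNA was labelled is not given in the sources used here.

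Background was corrected by normexp (offset 50) on median signals, and each array was normalized by loess. The 1417 control spots and 98 outlier-marked spot values were left out. A probe was tested when well above background in Cy5 on at least 3 arrays (22705 probes). Probes were named by RefSeq accession through a GRCz12tu gene table (16568 of 43603, 38.0%); the array was designed on danRer6, so no coordinates are given. A gene was taken by its brightest tested probe (8845 genes). Tests used limma 3.58.1 in R 4.3.3 (two-sided, female minus male, Benjamini-Hochberg over all tested probes, threshold 0.05), and the code was tested on simulated data. Alternatives were other scalings, signals, filters and probe rules, blocks for session and fish number, and leaving out each fish.

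The members and lists were chosen with earlier results of these data known. Named were, per list, the 3 genes with the widest difference and the 3 brightest, and, per member, the 4 most like it; other called list genes were named after their values were seen.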

Additional observations from a re-analysis of the deposited data

Results flagged for a closer look

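The difference in mpz between libraries labelled female and male was not the same in sessions 1 and 3. Female minus male in session 1 minus that in session 3 was -2.48 ± 0.32 (SE; limma, adjusted p = 0.0335), with mpz at 1.53 and 1.16 in females 7 and 9 against 3.68 in male 9 in session 1, and at 0.38 and 0.25 in females 4 and 8 against 0.17 in the library labelled male 5 in session 3. The second mpz probe gave -1.66 (limma, adjusted p = 0.0358) and the third -0.07 (limma, adjusted p = 0.888). Each session's value rests on 1 library labelled male, and session and fish cannot be told apart. The egg genes of the library labelled male 5 held 1.18% of its Cy5 signal, within the 1.13% to 1.35% of the females, against 0.0557% in male 9. The result takes that label as given, and whether the label is right was not tested.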

How the results depend on the processing

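Over all 7 fish, 0 members and 0 list genes passed, and leaving out each fish in turn gave 0 to 2 members and 0 to 30 list genes, the upper values without the library labelled male 5. Within session 1, 2 members and 36 list genes passed. The fish numbers 8 and 9 occur in both sexes but are names within a sex and not a pairing. Deviations of same-numbered fish correlated at -0.13 and 0.43. With the number as a replicate block 2 members and 28 list genes passed (mpz -2.99, snap25a -2.91), and so did 4083 probes in all (18.0%). That block leaves only fish 8 and 9 of each sex in the comparison. Without the library labelled male 5, 2 members and 30 list genes passed, as did 25.4% of all probes. Median centring left 0 members and 1 list gene (uchl1), scale normalization 1 member (mpz) and 9 list genes, while processed signals gave 48 list genes, 51 passed with the deposited values and 56 with Cy5 alone. Called probes numbered 5757, against 702 with median centring, 1858 with scale normalization, 9158 with processed signals, 9506 with the deposited table, 11239 with Cy5 alone and 3432 without male 8. The median within-sex SD of the tested members was 1.36, and leaving out each fish in turn gave 0.532 to 1.51. Signs turned for mpz (0.15) and snap25a (0.23) within session 3. For gfap over all 7 fish they turned with the number block (0.047) and without the library labelled male 5, leaving out each fish giving -0.093 to 0.058. In the comparison with males 8 and 9 they turned for gfap with processed signals (-1.003), the deposited table (-1.03), the session block (-0.035), Cy5 alone (-0.0045) and without male 8, leaving out each fish giving -0.010 to 0.127. They also turned for tubb5 (0.32), klf6a (0.30) and glula (0.062) with median centring, and for plp1a (-0.22) with the mean of its probes. The causes were not tested. Of the other differences of single genes, 342 kept direction and side of the threshold, 61 lost the call and 21 gained it; of the SDs of single members, 26 stayed within 1.5 times their value and 7 did not. Dim probes limit gfap and elavl3, whose signal lay at or near background.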
